A study of Mus musculus with 8 samples.

Results

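The SNARE machinery of granule release was followed through 10 genes, Vamp8, Vamp3, Vamp2, Vamp7, Stx11, Stx4a, Stxbp2, Stxbp5, Snap23 and Unc13d, chosen by name. The deposited tables list 9 of these 10 genes by symbol among 55487 genes. Vamp7 has no symbol there and was found by its identifier in the GENCODE M21 annotation. Platelet RNA came from 4 male mice labelled WT and 4 male mice labelled Dnmt3a+/-, all aged 13 weeks and described as littermates, with 1 library per mouse and no treatment named. Dnmt3a encodes a DNA methyltransferase that sets new methylation marks. The labels do not say how the mutant allele was made or which cells carry it. The platelets came from blood taken by cardiac puncture and were cleared of Ter119-bearing red cells and CD45-bearing leukocytes with beads.

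Platelets release the content of their granules when a SNARE protein on the granule zips together with SNARE proteins on the plasma membrane. The granule side supplies an R-SNARE of the VAMP family, and the plasma membrane supplies a syntaxin (a Qa-SNARE) and SNAP-23 (a Qbc-SNARE, which brings a pair of helices). Munc18-2, encoded by Stxbp2, holds and templates the syntaxin, Munc13-4, encoded by Unc13d, primes and tethers the granule, and tomosyn-1, encoded by Stxbp5, is a syntaxin binder that regulates secretion. In human familial haemophagocytic lymphohistiocytosis, loss of syntaxin-11, Munc18-2 or Munc13-4 impairs the release of cytotoxic granules, and platelet secretion defects are known for these genes. VAMP-8 is known as the main R-SNARE of platelet secretion, with VAMP-2 and VAMP-3 able to substitute in part.

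Libraries held 15185218 to 22160394 counts in total, and 7362 genes had enough of them to be tested. Dnmt3a, which checks the labels, had 332, 408, 315 and 279 counts across WT replicates 1 to 4. Under the Dnmt3a+/- label its counts were 151, 186, 399 and 450, again from replicate 1 to 4. Its level was therefore below the WT range in 2 of the 4 libraries labelled Dnmt3a+/- in CPM (counts per 1000000 after TMM scaling), at 9.96 and 11.5 against 18.2 to 22.1, and was 24.2 and 19.5 in the other 2. In TPM, the length-corrected level defined below, WT ran from 5.6 to 8.91. Dnmt3a+/- replicates 1 and 2 were at 4.67 and 3.52, below that range, and replicates 3 and 4 at 10.12 and 10.86, above it. The allele's effect on the transcript is not given, so each direction below is between labels. Markers of platelets took 3.34% to 4.10% of counts. A red cell marker list was highest in WT replicate 1, at 2.02%, beside 0.202% to 0.484% elsewhere.

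The SNARE genes did not differ between labels by more than the spread between libraries. All 10 passed the filter on low counts. None of the 10 had an adjusted p under 0.05 in edgeR's quasi-likelihood test (Benjamini-Hochberg adjustment over all 7362 genes), and the share over all genes was 0.0%. None had an unadjusted p under 0.05 either, where the share over all genes was 4.92%, and DESeq2 and limma also called none. In none of the 10 did the 4 CPM values of one label lie apart from those of the other, against 2.54% of all genes. Of the 10 log2 fold changes (Dnmt3a+/- minus WT), 5 were positive and 5 negative, with a median of 0.04, beside a median of -0.005 over all genes tested.

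**Figure D1:**
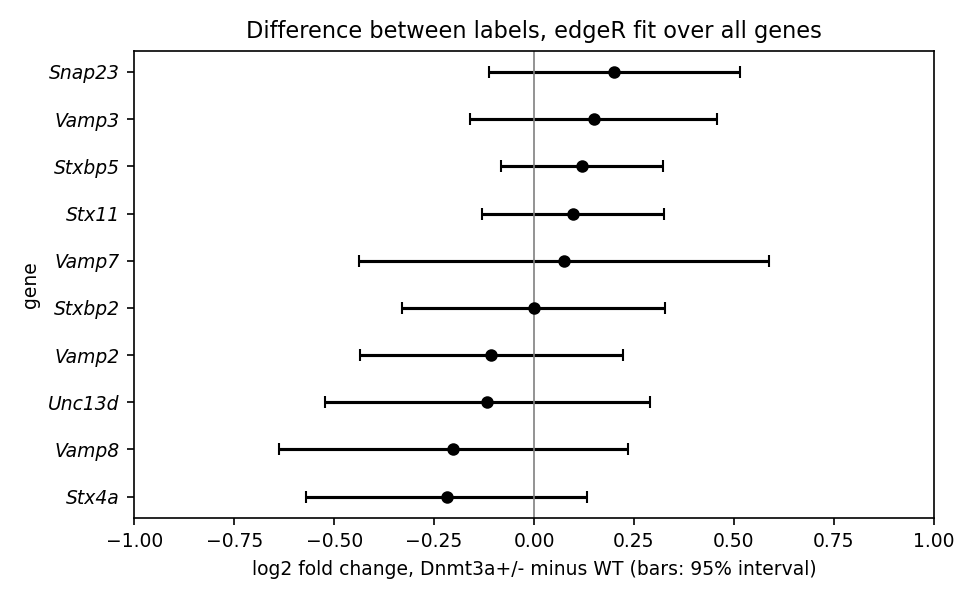
Log2 fold change of each gene, libraries labelled Dnmt3a+/- minus WT (horizontal axis), with its 95% interval from the edgeR fit of 8 libraries. All 10 intervals include 0, with estimates from -0.22 (Stx4a) to 0.20 (Snap23).

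Levels are given in TPM (transcripts per 1000000, corrected for length), so that genes can be compared with each other. The 10 genes spanned a wide range, led by Snap23 and Stx11, genes of target-membrane SNAREs, while Stx4a, of the same side, was the seventh. Snap23 had the highest mean, at 1384 ± 256 TPM (SD, n = 8), which is rank 91 of all 55487 genes, and Stx11 followed at 505 ± 61.1 TPM, rank 210. Vamp7 had the lowest mean, at 5.857 ± 1.345 TPM. Together Snap23 and Stx11 made up 85.9% to 91.7% of the summed TPM of the 10 genes.

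**Figure D2:**
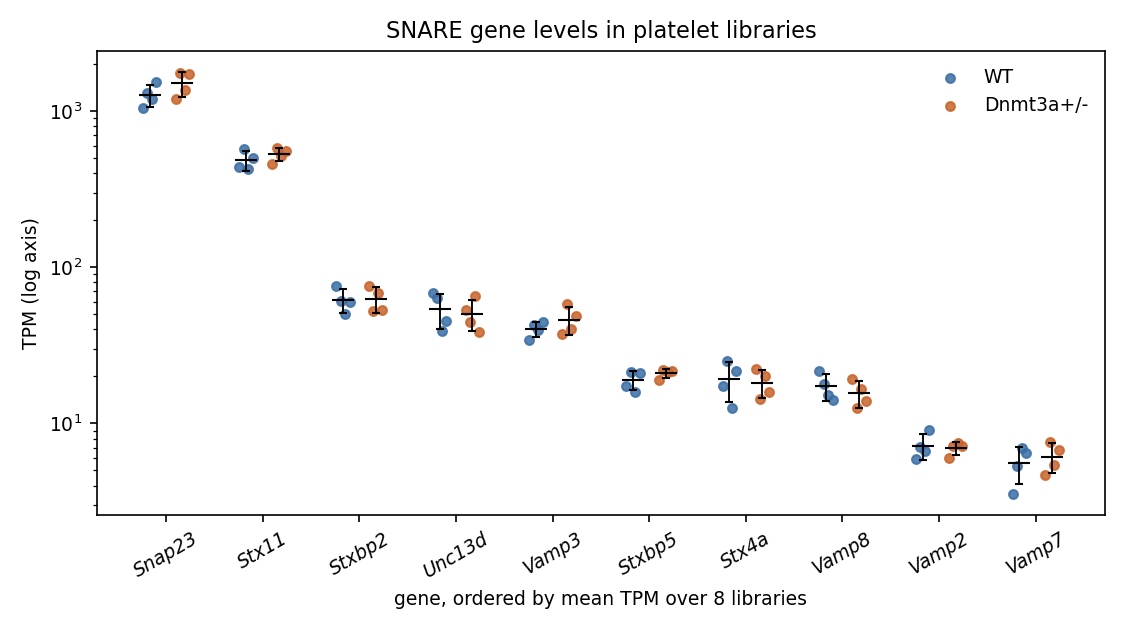
TPM of each gene on a log axis in the 4 WT libraries (blue) and the 4 libraries labelled Dnmt3a+/- (orange). Points are libraries, and horizontal bars with whiskers are the mean ± SD of each label. Snap23 lies between 1046 and 1749.9 TPM and Vamp7 between 3.56 and 7.64, and the labels overlap for every gene.

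Snap23 (ENSMUSG00000027287, chr2:120567671-120601255, plus strand, GRCm38) encodes SNAP-23, the palmitoylated Qbc-SNARE that anchors to the platelet plasma membrane. It was at 1046, 1306, 1182 and 1522 TPM across WT replicates 1 to 4. Under the other label it was at 1195, 1749.9, 1355 and 1715 TPM, in the same order of replicates. Replicates 2 and 4 of the Dnmt3a+/- label were above all WT values, while its replicates 1 and 3 lay within the WT range. The log2 fold change was 0.20 (SE 0.14, 95% interval -0.11 to 0.51), with an edgeR adjusted p of 0.998. Snap23 supplied 97.35% to 98.26% of the summed TPM of the 4 SNAP genes. Snap29 and Snap47, broadly expressed relatives that act on internal membranes, were at 15.3 and 15.5 mean TPM, and Snap25, the neuronal member, had 0 counts in all 8 libraries. A count of 0 in a library allows up to 3 expected counts, for counting error only.

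Stx11 (ENSMUSG00000039232, chr10:12938209-12964298, minus strand) encodes syntaxin-11, a syntaxin without a transmembrane helix. It was at 439.7, 572, 422 and 498 TPM across the WT mice, and at 459, 582, 517 and 551 TPM under the Dnmt3a+/- label. All but 1 of the Dnmt3a+/- values fell inside the WT range. The log2 fold change was 0.10 (SE 0.10, 95% interval -0.13 to 0.32, edgeR adjusted p = 0.998). Stx4a (ENSMUSG00000030805, chr7:127824294-127849019, plus strand) encodes syntaxin-4, another plasma membrane syntaxin, and was far lower. Its values were 17.4, 25.2, 12.6 and 21.7 TPM in WT, and 22.2, 14.35, 20.2 and 15.97 TPM under the Dnmt3a+/- label, with both labels spread over the same range. Its log2 fold change was -0.22 (SE 0.16, 95% interval -0.57 to 0.13, edgeR adjusted p = 0.998). Stx11 exceeded Stx4a by 20.7-fold to 40.6-fold within a library.

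Stx11 was the largest of 13 syntaxin genes of the Qa class, with 56.4% to 60.3% of their summed TPM, and Stx4a took 1.48% to 2.73%. The other large share belonged to Stx7, a syntaxin of endosomes, at 284 mean TPM (258 to 319). Stx16, of the trans-Golgi network, was at 26.3 mean TPM, and Stx2, a plasma membrane syntaxin, at 18.5.

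Among the R-SNAREs, Vamp3 was the most abundant transcript in every library. Vamp3 (ENSMUSG00000028955, chr4:151047300-151057963, minus strand), which encodes cellubrevin, was at 34.4, 42.8, 39.6 and 44.7 TPM in WT and at 37.1, 58.3, 40.4 and 48.8 TPM under the Dnmt3a+/- label. The Dnmt3a+/- replicates 2 and 4 exceeded all WT values. Its log2 fold change was 0.15 (SE 0.14, 95% interval -0.16 to 0.46, edgeR adjusted p = 0.998). Camta1 overlaps Vamp3 on the same strand, so how reads in the shared stretch were divided can affect its count.

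Vamp8 (ENSMUSG00000050732, chr6:72385223-72390703, minus strand), the endobrevin gene, was at 21.8, 17.9, 15.3 and 14.2 TPM in WT and at 19.4, 12.5, 16.5 and 13.9 TPM under the Dnmt3a+/- label. WT replicate 1 was the highest, and the lowest library carried the Dnmt3a+/- label. The log2 fold change was -0.20 (SE 0.20, 95% interval -0.64 to 0.23, edgeR adjusted p = 0.998). These values rest on 120 to 215 counts per library, the fewest of the 10 genes in 6 of 8 libraries, beside 988 to 1913 for Vamp3.

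Vamp2 (ENSMUSG00000020894, chr11:69088490-69092384, plus strand), the synaptobrevin-2 gene, was at 5.89, 7.10, 6.65 and 9.08 TPM in WT and at 5.97, 7.13, 7.51 and 7.18 TPM under the Dnmt3a+/- label. The WT values enclosed all 4 of the other label. Vamp7 (ENSMUSG00000051412, on an unlocalized scaffold that RefSeq assigns to chromosome X) encodes a longin-domain VAMP of late endosomes and lysosomes. It was at 3.56, 5.36, 6.92 and 6.51 TPM in WT and at 4.70, 7.64, 5.39 and 6.78 TPM under the Dnmt3a+/- label, again with overlapping labels. The log2 fold changes were -0.11 (SE 0.15) for Vamp2 and 0.08 (SE 0.23) for Vamp7, and the edgeR adjusted p was 0.998 for both. A pseudogene, Vamp7-ps, had 0 counts in all libraries.

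Of the summed TPM of 7 Vamp genes, Vamp3 took 52.9% ± 3.54 in WT and 56.5% ± 6.32 under the Dnmt3a+/- label, and Vamp8 22.9% ± 5.34 and 19.6% ± 5.44 (SD, n = 4 each). Vamp2 took 7.84% to 11.4% and Vamp7 4.96% to 9.51%. The ratio of Vamp3 to Vamp8 varied 2.95-fold among libraries. It was 1.58, 2.39, 2.59 and 3.14 in WT, and 1.92, 4.65, 2.45 and 3.51 under the Dnmt3a+/- label, so each label held low and high libraries. Vamp5 (4.59 mean TPM), Vamp1 (1.03) and Vamp4 (0.397) made up the rest of the family. They lie below the least abundant of the 10 genes and were singled out after their values were seen. Other R-SNAREs, of transport between the endoplasmic reticulum and the Golgi, were Sec22b at 23.2 and Ykt6 at 6.82 mean TPM.

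**Figure D3:**
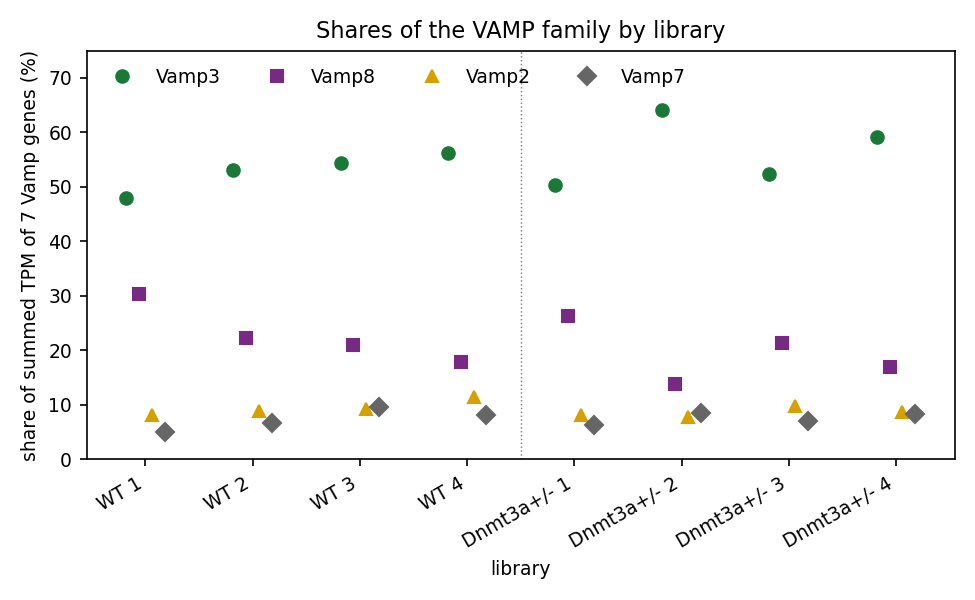
Share of the summed TPM of 7 Vamp genes taken by Vamp3, Vamp8, Vamp2 and Vamp7 (vertical axis, percent) in each library, WT left and Dnmt3a+/- right of the dotted line. Vamp3 runs from 47.9% to 64.0% and Vamp8 from 13.8% to 30.4%.

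Among the regulators, Stxbp2 (ENSMUSG00000004626, chr8:3630955-3643644, plus strand) was at 75.8, 60.6, 50.25 and 59.7 TPM in WT and at 75.9, 52.6, 68.55 and 53.3 TPM under the Dnmt3a+/- label. Both labels reached from about the same low to the same high value. The log2 fold change was -0.0005 (SE 0.15, 95% interval -0.33 to 0.33, edgeR adjusted p = 0.999). It supplied 83.5% to 91.8% of the summed TPM of 8 Sec1/Munc18 genes. The plasma membrane paralogue Stxbp3, singled out after its values were seen, was at 2.56 mean TPM.

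Unc13d (ENSMUSG00000057948, chr11:116062095-116077961, minus strand) was at 67.85, 63.2, 39.2 and 45.3 TPM in WT and at 52.9, 44.6, 65.1 and 38.6 TPM under the Dnmt3a+/- label. High and low libraries stood under both labels. The log2 fold change was -0.12 (SE 0.18, 95% interval -0.52 to 0.29, edgeR adjusted p = 0.998). Unc13d supplied 94.8% to 97.9% of the summed TPM of 7 genes with the MUN domain. Unc13b made up most of the rest at 1.57 mean TPM, and Unc13a, the neuronal form, had at most 1 count in a library. Both were singled out after their values were seen.

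Stxbp5 (ENSMUSG00000019790, chr10:9755547-9901079, minus strand) was at 17.4, 21.4, 15.96 and 20.9 TPM in WT and at 18.9, 22.1, 21.3 and 21.5 TPM under the Dnmt3a+/- label. Its highest value was 1.38 times its lowest, as for Stx11, the narrowest spread among the 10 genes. The log2 fold change was 0.12 (SE 0.09, 95% interval -0.08 to 0.32, edgeR adjusted p = 0.998). For Stx4a the highest value was 2.00 times the lowest, and for Vamp7 2.15 times.

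In order of mean TPM the genes ran Snap23, Stx11, Stxbp2, Unc13d, Vamp3, Stxbp5, Stx4a, Vamp8, Vamp2 and Vamp7. Each neighbouring pair was compared within libraries on the log2(TPM + 1) scale. The test was an exact two-sided sign-flip permutation test over 8 libraries, with adjustment over the 9 pairs. The order came from these same libraries, so the p values describe only how steadily a pair differed among them. Snap23 exceeded Stx11 by 2.71-fold, Stx11 exceeded Stxbp2 by 8.06-fold, Vamp3 exceeded Stxbp5 by 2.10-fold and Vamp8 exceeded Vamp2 by 2.15-fold, each in 8 of 8 libraries (exact permutation p = 0.00781, the smallest it can give, adjusted p = 0.0176). Stxbp2 exceeded Unc13d in 7 of 8 libraries, by 1.20-fold (exact permutation p = 0.0156, adjusted p = 0.0281), and this pair passed without 2 of the 8 libraries in turn and not without any 1 of the other 6.

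The other neighbours did not differ beyond their spread. Unc13d was above Vamp3 in 5 of 8 libraries (exact permutation, adjusted p = 0.229), Stxbp5 above Stx4a in 4 of 8 (adjusted p = 0.328), and Stx4a above Vamp8 in 6 of 8 (adjusted p = 0.229). Vamp2 was above Vamp7 in 6 of 8 libraries (exact permutation, adjusted p = 0.0703), and this pair passed without the library labelled Dnmt3a+/- replicate 2. The order is one of transcripts, and the data hold no protein levels.

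The 250 bases before a RefSeq start were read for 6 of the 10 genes, in build GRCm38.p6. RefSeq starts differ from the ends of the GENCODE gene models given above: the Snap23 window lies outside its model, those of Stx11, Stxbp5 and Vamp8 overlap theirs by 36 to 39 bases and that of Stxbp2 by 154, and the Stx4a window lies within its model, 17264 bases from the start. It is shown for Snap23 and Stx11, the most abundant of the 10, and for Stxbp2 and Vamp8, whose levels ran opposite to theirs across libraries, as described below. CpG dinucleotides, the sites that Dnmt3a can methylate, are in capitals. The windows are written 5′ to 3′ on the gene's strand, at chr2:120567421-120567670 (plus), chr10:12964260-12964509 (minus), chr8:3630859-3631108 (plus) and chr6:72390668-72390917 (minus).
Snap23: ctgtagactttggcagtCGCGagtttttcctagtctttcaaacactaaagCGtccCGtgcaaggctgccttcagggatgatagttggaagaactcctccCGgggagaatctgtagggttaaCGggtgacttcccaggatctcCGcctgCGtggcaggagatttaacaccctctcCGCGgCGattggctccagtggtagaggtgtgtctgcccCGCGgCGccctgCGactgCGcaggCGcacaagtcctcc
Stx11: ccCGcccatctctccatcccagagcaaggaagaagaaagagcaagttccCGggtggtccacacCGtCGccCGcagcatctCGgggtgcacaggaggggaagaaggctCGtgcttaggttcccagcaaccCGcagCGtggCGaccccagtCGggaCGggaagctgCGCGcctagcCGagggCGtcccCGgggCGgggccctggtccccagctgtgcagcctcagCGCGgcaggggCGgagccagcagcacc
Stxbp2: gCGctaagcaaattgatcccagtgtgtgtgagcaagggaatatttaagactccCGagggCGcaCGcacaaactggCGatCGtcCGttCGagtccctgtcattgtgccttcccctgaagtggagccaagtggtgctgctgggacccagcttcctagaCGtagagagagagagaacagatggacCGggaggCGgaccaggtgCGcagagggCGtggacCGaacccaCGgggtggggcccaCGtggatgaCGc
Vamp8: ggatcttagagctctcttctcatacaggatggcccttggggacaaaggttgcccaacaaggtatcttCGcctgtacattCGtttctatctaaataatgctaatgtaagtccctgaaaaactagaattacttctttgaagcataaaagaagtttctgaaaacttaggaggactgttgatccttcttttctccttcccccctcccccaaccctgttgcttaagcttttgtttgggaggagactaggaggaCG

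The window of Vamp8 held 3 CpG and a GC content of 43.6%. Those of Snap23 and Stxbp2 held 17 CpG each, and that of Stx11 held 21. Over 32851 windows the median was 6 CpG, 29.0% had fewer CpG than Vamp8, and 83.7% fewer than Stx11. Stx4a held 23 CpG and Stxbp5 held 40, more than 98.7% of windows. Methylation was not measured in these samples. The motif AGATAA, bound by GATA1, was found on neither strand in the 6 windows, against 9.99% of all windows. The RUNX1-type motif TGTGGT was likewise found in none of the 6, against 14.0%. The ETS-type motif CCGGAA, searched in the same way, was found in the window of Stx4a alone, against 12% of all windows. No match says only that these letters are not in these windows.

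Across the 8 libraries the genes varied in a shared pattern. In log2(CPM + 1), Snap23, Stx11, Vamp3, Stxbp5, Vamp2 and Vamp7 were positively correlated with each other in 15 of 15 pairs (r 0.32 to 0.94), and Vamp8, Stxbp2, Unc13d and Stx4a in 6 of 6 (r 0.48 to 0.86). Between these sets 23 of 24 pairs were negative, down to -0.94 for Snap23 with Vamp8. The sets were drawn after the values were seen, so these counts of signs are a description and not a test. Of the 45 pairs, 12 had an adjusted p under 0.05 by the exact permutation test of Pearson's r, and 6 of them also by Spearman's rho. An absolute r of at least 0.8 was reached by 13 of the 45 pairs, against 3.99% of all pairs of tested genes, which were not matched to them on depth. Libraries of both labels stood at each end of the pattern.

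Stx11 and Vamp3 had a Pearson r of 0.94 (exact permutation p = 0.000149, adjusted p = 0.0067) and a Spearman rho of 0.93 (p = 0.00223, adjusted p = 0.0251). Snap23 and Vamp3 had an r of 0.93 (exact permutation p = 0.00109, adjusted p = 0.0159) and a rho of 0.95 (p = 0.00114, adjusted p = 0.0251). Stx11 and Stxbp2, the gene of its Munc18 partner, had an r of -0.86 (exact permutation p = 0.00394, adjusted p = 0.0296) and a rho of -0.905 (p = 0.00456, adjusted p = 0.0342). Stxbp2 and Vamp8 had an r of 0.86 (exact permutation p = 0.00895, adjusted p = 0.0366) and a rho of 0.93 (p = 0.00223, adjusted p = 0.0251). Without the 2 libraries farthest from the median of the first gene these r values were 0.78, 0.88, -0.90 and 0.615.

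Snap23 and Vamp8 had an r of -0.94 (exact permutation p = 0.000992, adjusted p = 0.0159) and a rho of -0.83 (p = 0.0154, adjusted p = 0.0532), and an r of -0.84 without the 2 libraries farthest from the median of Snap23. After subtracting each label's own mean, r was -0.935 for Snap23 with Vamp8, 0.935 for Stx11 with Vamp3 and -0.93 for Stx11 with Stxbp2. These pairs were about as strong within labels. Other pairs moved more, in either direction. Stxbp5 went from 0.51 to 0.914 with Vamp2 and from -0.379 to -0.0928 with Stx4a. The labels give no batch, and 4 libraries per label are too few for a separate correlation in each.

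A property of whole libraries moved with this pattern. For each library the median deviation of genes below the first quartile of transcript GC content was taken from that of genes above the third quartile, on the log2(CPM + 1) scale over 7345 genes without the 10. This GC axis was 0.33, 0.10, -0.12 and -0.16 across WT replicates 1 to 4, and 0.17, -0.23, 0.17 and -0.27 across the Dnmt3a+/- label. The labels had means of 0.039 ± 0.22 and -0.040 ± 0.24 (SD, n = 4 each), so the axis differed among libraries and not between labels by more than their spread.

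Of the 10 genes, 7 had an absolute r of at least 0.8 with the GC axis over the 8 libraries, against 14.0% of all genes tested, which were not matched to them on depth. Unc13d had an r of 0.96 (exact permutation p = 0.000769, adjusted over the 10 genes 0.00384) and a rho of 0.93 (p = 0.00223, adjusted p = 0.00744). Snap23 had an r of -0.94 (exact permutation p = 0.000546, adjusted p = 0.00384) and a rho of -0.905 (p = 0.00456, adjusted p = 0.00761). Without the 2 libraries farthest from the median of the axis, WT replicate 1 among them, these r values were 0.94 and -0.87. Transcripts of Unc13d have a GC content of 58.8% and those of Snap23 42.7%, and the third and first quartiles over the genes used were 53.6% and 45%.

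Vamp8, Stxbp2 and Stx4a, at 52.6%, 54.7% and 53.6% GC, had r values of 0.87, 0.88 and 0.63 with the axis. Vamp3, Stx11 and Stxbp5, at 46.2%, 48.5% and 44.6% GC, had values of -0.88, -0.85 and -0.60. Vamp2 departed from this order, with a GC content of 56.9% and an r of -0.58. No GC value was at hand for Vamp7, whose r was -0.885. Of these, the values of Stx4a, Stxbp5 and Vamp2 did not pass (exact permutation, adjusted p = 0.133 each).

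When the GC trend of each library was removed, the SD over libraries fell from 0.30 to 0.12 for Unc13d, from 0.235 to 0.126 for Snap23 and from 0.22 to 0.13 for Stxbp2, on the log2(CPM + 1) scale. It went from 0.28 to 0.22 for Vamp8 and from 0.17 to 0.29 for Vamp2. The r of Snap23 with Vamp8 was then -0.885, that of Stx11 with Vamp3 0.91 and that of Stx11 with Stxbp2 -0.72. The r of Snap23 with Stxbp5 went from 0.81 to 0.21. Of the 45 pairs, 8 changed sign, and 7 of these involve Stxbp5. Its r went from -0.34 to 0.61 with Stxbp2, from -0.52 to 0.40 with Unc13d, and from 0.63 to -0.20 with Stx11. After this step r ran from -0.245 to 0.91 within the first set and from 0.0115 to 0.665 within the second. Between the sets it ran from -0.885 to 0.61. In the same order, the median r went from 0.698 to 0.683, from 0.718 to 0.427 and from -0.715 to -0.473. Stxbp5 no longer followed the first set. Vamp7, without a GC value, was left uncorrected, so each of its pairs set a corrected gene against an uncorrected gene. The lowest r within the first set, -0.245, was that of Vamp7 with Stxbp5. With the same step in the edgeR fit, again none of the 10 genes was called.

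**Figure D4:**
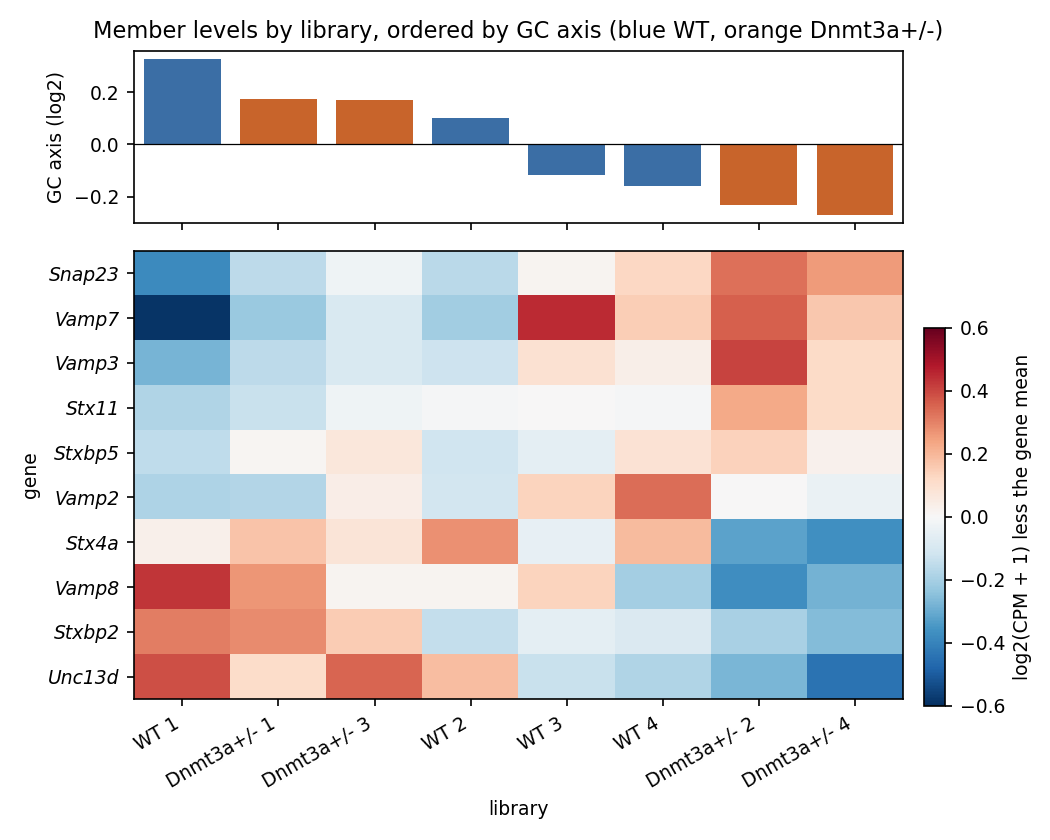
Top, the GC axis of each library (log2 units, WT blue and Dnmt3a+/- orange), with libraries ordered from high to low. Bottom, the deviation of each gene from its own mean over 8 libraries, in log2(CPM + 1). Snap23 goes from -0.38 in WT replicate 1 to 0.255 in Dnmt3a+/- replicate 4, and Unc13d from 0.39 to -0.445.

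Genes whose levels followed these most closely over the 8 libraries were taken from 6721 other genes by Pearson's r, as a description. For Snap23 they were Casd1 (0.98), Spcs3 (0.98) and Rgs18 (0.98), a regulator of G protein signalling that is abundant in platelets. For Stx11 they were Cggbp1 (0.99), Diras2 (0.99) and Tmod3 (0.98), a tropomodulin that caps actin filaments. For Vamp8 they were Sardh (0.99), Smyd4 (0.985) and Vps52 (0.98), a subunit of a Golgi tethering complex. For Stxbp2 they were Ly6g6c (0.99), Ndufa3 (0.985), a subunit of respiratory complex I, and Sh3bgrl3 (0.97). Of the 6721 genes, 164 had an r over 0.9 with Snap23 and 153 an r under -0.9. For Stxbp2 these were 180 and 66. Transcript GC content of the genes named was 45.2%, 40.2% and 33.4% for Snap23 and 41.4%, 50.1% and 42.5% for Stx11. It was 56.9%, 50.1% and 55.9% for Vamp8 and 55.1%, 53.1% and 58.6% for Stxbp2. The part of the GC axis in these likenesses was not tested.

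The wider fusion machinery gave no call either. Of 100 other genes on 12 lists of SNAREs, their binders, primers, sensors and tethers, 53 were tested. In edgeR's test 0 of them passed, where the share over all genes was 0.0%. At an unadjusted p under 0.05 there were also 0, where the share over all genes was 4.92%. Of their log2 fold changes 29 were positive and 24 negative, with a median of 0.03, beside -0.005 over all genes tested. Sytl4, which encodes granuphilin, an effector of Rab27, was at 286 mean TPM, and Rab27b, a GTPase of granule docking and secretion in platelets, at 168. Their log2 fold changes were 0.03 (SE 0.09) and 0.13 (SE 0.14), and the edgeR adjusted p was 0.998 for both. Rab27a, singled out after its values were seen, had 2 to 10 counts per library.

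Of 9 tested Qb and Qc SNAREs 3 were positive and 6 negative, led in level by Gosr2, a Golgi SNARE, at 50.8 mean TPM (46.4 to 55.9). Vti1b, Bet1l, Stx8 and Use1 lay between 8.95 and 18.1 mean TPM. Of the disassembly factors, Napa, the gene of alpha-SNAP, was at 28.6 mean TPM and Nsf, the gene of the ATPase that takes spent SNARE complexes apart, at 8.74. Of the exocyst and Ral genes, 5 had positive and 5 negative values, with Exoc4 at 62.2, Exoc6 at 33.8 and Ralb at 5.90 mean TPM.

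Calcium sensors of neuronal release were scarce. Of 23 synaptotagmin, Doc2 and complexin genes, 14 had 0 counts in every library, among them Syt1 and Cplx1. Syt13 and Syt11, which are known to bind calcium poorly, were at 10.9 and 6.01 mean TPM. Of genes listed as modifiers of SNAP-23, Chuk and Lypla1 were at 25.3 and 6.70 mean TPM, and Ikbkb, the kinase known to phosphorylate SNAP-23, at 3.02, below the least abundant of the 10 genes and singled out after its values were seen.

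Several of these genes are also expressed in leukocytes, and in such bulk samples fewer cells of a type and less RNA per cell cannot be told apart. Transcripts of 9 neutrophil markers summed to 2 to 28 counts per library (0.0000263% to 0.000175% of counts in WT, 0.000012% to 0.0000316% in the other label), with Camp and Elane at 0 in all. Those of 10 T and NK cell markers summed to 56 to 106 counts, with Cd3e, Cd3g, Gzmb and Prf1 at 0 in all, and Nkg7 gave 53 to 106 counts per library. Ptprc, the gene of CD45, had 4 to 27 counts, beside 1838 to 2899 for Unc13d and 22901 to 41388 for Stx11. Vamp8, Vamp7 and Vamp2 had far fewer, at 120 to 215, 124 to 322 and 172 to 290. The 6 B cell markers summed to 32, 39, 24 and 5 counts across the WT replicates, and to 9, 118, 8 and 88 under the other label. The 8 monocyte and macrophage markers summed to 58, 134, 75 and 59 counts in WT, and to 54, 188, 43 and 226 under the other label. Both lists were highest in Dnmt3a+/- replicates 2 and 4, the libraries in which Snap23 and Vamp3 exceeded all WT values. These 2 libraries also had the lowest values of the GC axis, at -0.23 and -0.27. The red cell list and the hepatocyte list also varied, the latter from 0.000987% to 0.106% in WT and from 0.0000451% to 0.0107% in the other label, and the part of these 4 lists in the values of the 10 genes was not tested.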

How the data were processed

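RNA was measured in platelets of 8 mice, 4 per label. Per the labels' protocols, RNA was isolated with a Qiagen kit and polyadenylated RNA was made into stranded Illumina libraries. The authors deposited an estimated count and a TPM per gene and library. Tools named in the submitters' processing notes are cutadapt, STAR, RSEM and DESeq2, and the build is mm10. Which version each had, what it did, the annotation and the strand setting are not given in the sources used here. Every estimated count in the deposited table is whole, and TPM adds up to about 1000000 in each library.

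Estimated counts were fitted with edgeR 4.0.16 in R 4.3.3 (TMM factors, filterByExpr by group with a minimum count of 10 and a total of 15, glmQLFit and glmQLFTest, Benjamini-Hochberg adjustment over 7362 genes, threshold 0.05). SEs were derived from the test's F statistics. DESeq2 1.42.0 and limma 3.58.1 served as alternatives. Scripts were tested on simulated counts. Of 86 rows without a symbol, Vamp7 was named through GENCODE M21. That release, on GRCm38 (mm10), gave coordinates and transcript GC content, present for 99.9% of genes tested. No 2 libraries were alike within counting noise (chi-square per degree of freedom at least 12.1), so each counted as 1 replicate.

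The genes and lists were chosen with earlier results of these data known. The rule for named genes took the 10 genes, Dnmt3a, each listed pathway gene with a mean TPM at least that of the lowest of the 10 or with an adjusted p under the threshold, and, for Vamp8, Stx11, Snap23 and Stxbp2, the 3 named genes of highest Pearson r in log2(CPM + 1). The GC correction subtracted a smooth curve of each library's deviations on GC content, left Vamp7 as it was, and was chosen after seeing the data. Results on some genes are not reported here.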

Additional observations from a re-analysis of the deposited data

Results flagged for a closer look

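Of 40 sets of 4 libraries examined (levels, family shares and the GC axis within a label), 2 held a library far from the others, by the ratio of its gap to the range of the set. Chance flags about 1 in 20 such sets. The share of syntaxin TPM taken by Stx11 reached 60.14% for WT replicate 2, beside 57.06% to 57.57% for its 3 fellows. It was 56.36% in the library labelled Dnmt3a+/- replicate 1 and 59.98% to 60.31% in the other 3 of that label.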

How the results depend on the processing

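None of the 10 genes was called under any of 18 alternatives: RLE or upper-quartile factors, no filter or a strict filter (CPM of at least 5 in 4 libraries), DESeq2, a robust fit, limma on log2 TPM with a pseudocount of 1 or 0.1, a replicate block, each library left out in turn, and, added after seeing the data, the GC correction. Their lowest adjusted p was 0.707. Over all genes the count of calls went from 0 to 250 without a filter (246 lower), 9 with DESeq2, 1 with the robust fit and 0 to 135 with a library left out (135 without WT replicate 1, 1 without Dnmt3a+/- replicate 2). Log2 fold changes near 0 changed sign, the cause not tested. Stxbp2 was at 0.017 with upper-quartile factors, 0.015 without a filter, 0.021 with limma at either pseudocount (0.02071 and 0.02097), 0.031 after GC correction, and from -0.095 to 0.11 with a library left out. Vamp7 ran from -0.087 to 0.28 with a library left out, Vamp2 from -0.18 to 0.012 and Unc13d from -0.26 to 0.0012. The median of the 10 genes was -0.018 without Dnmt3a+/- replicate 2 and -0.022 without WT replicate 2. By estimated counts, which carry no length correction, the mean share over 8 libraries was 65.2% for Vamp3 among Vamp genes (54.7% by TPM), 74.0% for Stx11 (58.6%), 86.35% for Stxbp2 (88.9%) and 94.7% for Unc13d (96.6%). Stx11 took 96.4% of Stx11 and Stx4a alone. Neighbouring genes in the order of levels that passed numbered 5, and 4 to 6 with a library left out. The r of Snap23 with Vamp8 ran from -0.97 to -0.90 with a library left out.

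The labels share replicate numbers but do not say what a number stands for. Same-numbered libraries had correlations of deviations of -0.037, 0.081, 0.158 and -0.168. Those of differently numbered libraries ran from -0.241 to 0.226. Whether the numbers pair the libraries cannot be told from so few values. With the replicate number as a block 0 genes were called (0 without it), the 10 genes had a median log2 fold change of 0.043, and none was called. In that edgeR fit 494 genes had an unadjusted p under 0.05, against 362 without the block. Depth limits the lowest genes most, Vamp8 at 120 to 215 counts and Vamp7 at 124 to 322.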
